A study of Homo sapiens with 6 samples.

Results

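The genes described here are 34 interferon-stimulated and antiviral sensing genes, taken from a list of gene symbols and matched to the genes of the count files. All 34 were found among 60669 genes, with the sensor RIG-I under its older symbol DDX58. A count filter across all libraries kept 17575 genes for testing, and 28 of the 34 passed it. The cells were 293T, a transformed human embryonic kidney line that carries a viral large T antigen. They were studied after loss of MLL2, a histone H3 lysine methyltransferase, or of PRMT1, an arginine methyltransferase, to find genes whose expression differed from control. The MLL2 KO group had the genotype MLL2 knockout, made by CRISPR/Cas9 editing, with no treatment. The PRMT1 KD group received a short hairpin RNA against PRMT1. The Control group was wild type with no treatment. Each group had 2 libraries, called biological replicates by the submitters. Whether the knockout is 1 clone, and whether another hairpin was present in the Control and knockout cells, is not given in the labels.

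Interferon-stimulated genes are switched on when a cell senses foreign nucleic acid or receives interferon. RIG-I and MDA5 (the product of IFIH1) sense viral RNA and signal through the mitochondrial adaptor MAVS, and cGAS senses DNA in the cytosol, after which IRF3 and IRF7 drive interferon genes. Secreted interferon acts through its receptor on a complex that includes STAT2 and IRF9 and binds interferon-stimulated response elements (ISREs) in the promoters of the effector genes.

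The libraries held 20061471 to 22351532 counts in genes, so that 1 count was worth 0.0439 to 0.0499 CPM (the share of a library's counts, scaled to a common total with the TMM library factors). PRMT1 was 8.56-fold lower in PRMT1 KD than in Control (log2 fold change -3.10 ± 0.09, SE, adjusted p = 5.5e-16), and 1.33-fold higher in MLL2 KO (0.41 ± 0.08, adjusted p = 0.00089). The name MLL2 has been used for KMT2B and for KMT2D, and neither transcript was called in MLL2 KO (0.02 ± 0.25, adjusted p = 0.966, for KMT2B and 0.19 ± 0.26, adjusted p = 0.661, for KMT2D). In PRMT1 KD both were higher than in Control, KMT2B by 2.82-fold (adjusted p = 3.1e-05) and KMT2D by 3.38-fold (adjusted p = 8.4e-06), with PRMT1 KD replicate 2 far above replicate 1 for both (26.7 and 13.4 CPM of KMT2B, and 95.5 and 37.8 CPM of KMT2D). An edit need not lower a messenger RNA, so the values in MLL2 KO do not check the knockout label. Markers of the 293T line, 9 genes, summed to 977 and 994 CPM in MLL2 KO, 1320 and 1360 CPM in PRMT1 KD, and 1280 and 1270 CPM in Control. The sum in PRMT1 KD hides members that differed from Control in opposite directions, such as NEFL with a mean of 55 CPM in PRMT1 KD against 349 CPM in Control, and IGF2BP1 with 272 CPM against 91.3 CPM. Immune cell markers, also 9 genes, summed to 2.40 and 1.57 CPM in MLL2 KO, 1.21 and 1.84 CPM in PRMT1 KD, and 3.14 and 2.56 CPM in Control. The T and B cell markers CD3E and MS4A1 had no count in any library. The part of these differences in the results was not tested.

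RefSeq promoter windows (GRCh38.p14, 250 bases before to 50 bases after the gene start) were at hand for 26 of the 34 genes. A core form of the ISRE, GAAA repeated after 2 bases of any kind, stood on either strand in 17 of these 26 windows, or 65.4%, against 3.57% of 35116 windows of all genes. The letters TTCNNNGAA, a core form of the gamma-activated site, stood in 8 of the 26, or 30.8%, against 7.66% of all windows. The following stretches are a selection from the windows with a core upstream of the gene start. IFIT1, IFIT3, IFIT5, IFI6 and BST2 were called in PRMT1 KD against Control. ISG15, the ubiquitin-like modifier that names the system, was not. IFITM1 was also called there and has a core, but is not printed. The stretches read along the strand of the gene, with the ISRE core or its reverse complement in capitals, and overlapping cores run together. They lie at chr10:89392492-89392544 (+) for IFIT1, chr10:89327860-89327899 (+) for IFIT3, chr10:89414508-89414567 (+) for IFIT5, chr1:1013369-1013414 (+) for ISG15, chr1:27672261-27672322 (-) for IFI6 and chr19:17405730-17405775 (-) for BST2.
IFIT1: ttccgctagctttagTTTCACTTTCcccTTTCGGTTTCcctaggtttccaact
IFIT3: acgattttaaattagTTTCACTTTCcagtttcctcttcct
IFIT5: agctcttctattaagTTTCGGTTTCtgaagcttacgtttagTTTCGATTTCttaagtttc
ISG15: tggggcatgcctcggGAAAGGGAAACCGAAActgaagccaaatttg
IFI6: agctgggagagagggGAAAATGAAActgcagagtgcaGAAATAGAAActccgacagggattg
BST2: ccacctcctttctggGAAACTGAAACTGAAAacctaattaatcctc
A match is a description of letters and not a site shown to be bound.

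Most of the 34 genes were weakly expressed in these cells. The median Control level of the 28 tested was 1.22 CPM per kilobase of exon, against 3.19 over all 17575 genes tested, and 9 of the 28 lay above that median. The 6 genes that did not pass the filter were MX1, OAS1, OAS2, IFI44, PARP14 and CGAS. OAS1 had no count in any library, and each of the other 5 had at most 8 counts in any library. Per kilobase of exon in Control, the highest levels were those of USP18 (13.4 CPM), IRF3 (13.1 CPM) and IFITM1 (12.3 CPM).

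**Figure D1:**
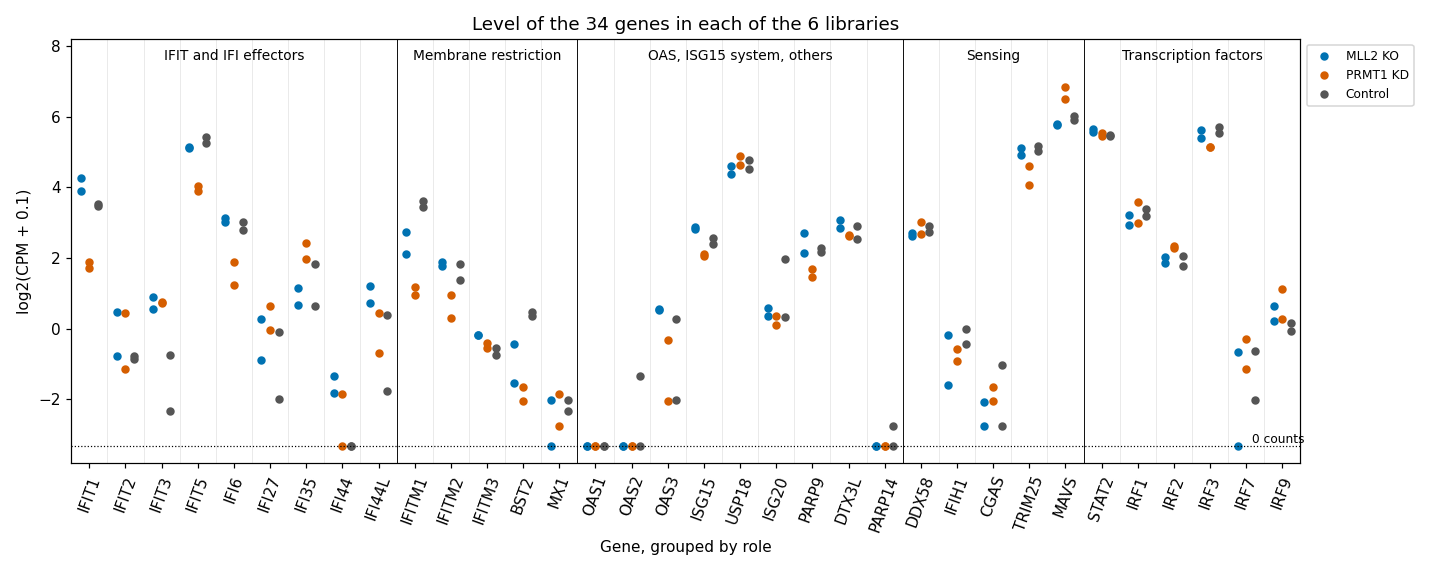
Level of each of the 34 genes in each library as log2(CPM + 0.1), grouped by role, with 1 point per library and the dotted line at 0 counts. The points of MLL2 KO, PRMT1 KD and Control separate for IFIT1 and IFITM1, and OAS1 lies at 0 counts in all 6 libraries.

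In MLL2 KO 3 of the 28 genes were called against Control at an adjusted p under 0.05, IFIT1 and IFIT3 higher and IFITM1 lower. That is 10.7%, against 22.4% of all genes tested (10.3% higher and 12.1% lower), and their median log2 fold change was 0.09, against -0.01 over all genes. In PRMT1 KD 10 of the 28 were called against Control, 2 higher (IFIT3 and MAVS) and 8 lower (IFIT1, IFIT5, IFI6, IFITM1, IFITM2, BST2, TRIM25 and IRF3). That is 35.7%, against 47.4% of all genes tested (22.2% higher and 25.3% lower), with a median of -0.04 beside -0.04 over all genes. Set directly against MLL2 KO, PRMT1 KD had 11 of the 28 called, 2 higher and 9 lower, or 39.3% against 40.7% of all genes (19.4% higher and 21.4% lower), with a median of -0.29 beside 0.01. Both depletions were compared with the same 2 Control libraries. Each p-value covers only the spread between these libraries, and in cell populations read as a whole, fewer expressing cells and less RNA per cell cannot be told apart.

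In MLL2 KO both libraries lay above both Control libraries for 8 of the 28 genes and below them for 5, which is also the case for 30.1% and 32.5% of all genes (62.6% in all). In PRMT1 KD they lay above for 6 and below for 11, against 35% and 38.5% of all genes (73.5% in all). PRMT1 KD lay above MLL2 KO for 4 and below it for 15, against 34.9% and 35.1% of all genes (70% in all).

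**Figure D2:**
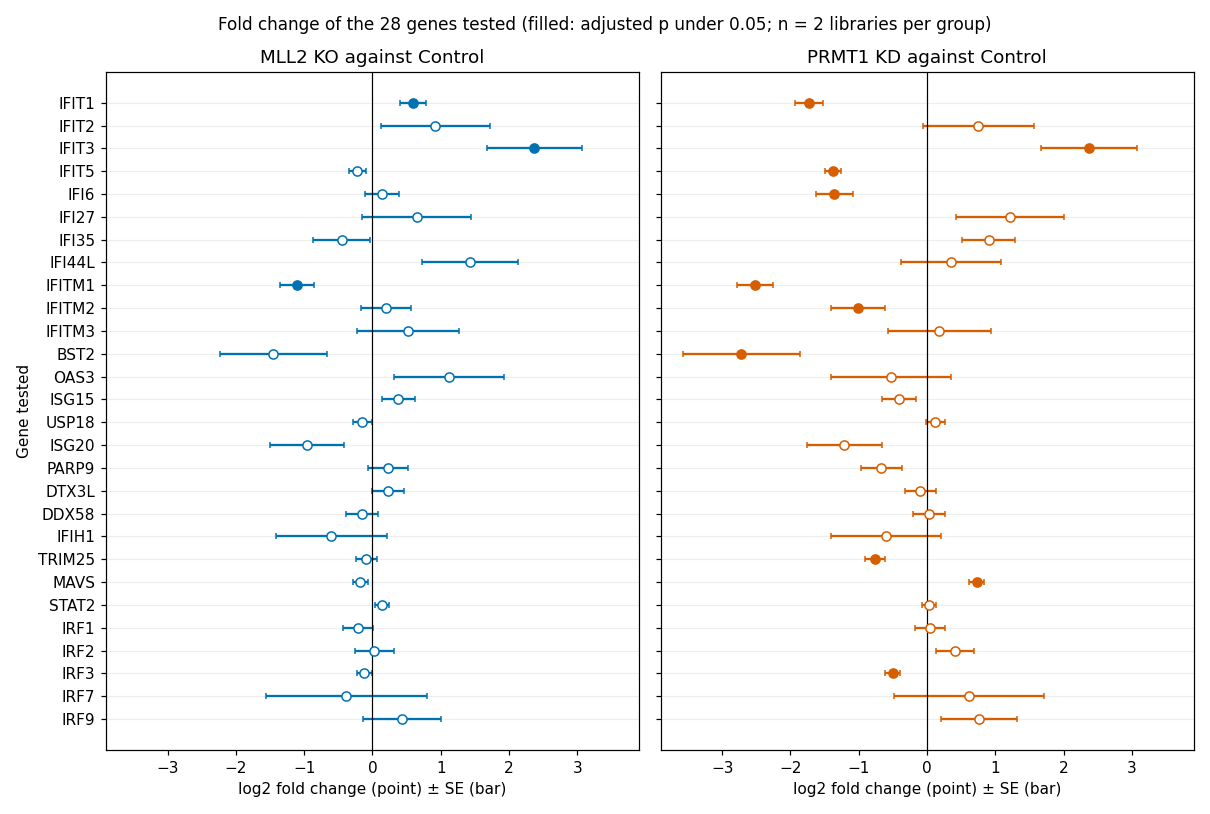
The log2 fold change (point) and its SE (bar) for each of the 28 genes tested, MLL2 KO against Control on the left and PRMT1 KD against Control on the right, with filled points for an adjusted p under 0.05. The left panel has 3 filled points and the right panel 10, of which 8 lie below 0.

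IFIT1, which binds viral RNA caps that lack the host methyl mark and blocks their translation, moved in opposite directions in the depletions. It had 19.3 and 14.8 CPM in MLL2 KO, 3.63 and 3.16 CPM in PRMT1 KD, and 11.5 and 11 CPM in Control. All 3 groups were separate, with the knockout highest and the knockdown lowest. IFIT1 was 1.52-fold higher in MLL2 KO than in Control (0.60 ± 0.19, adjusted p = 0.0248) and 3.31-fold lower in PRMT1 KD (-1.73 ± 0.21, adjusted p = 9.5e-07). The knockdown stood 5.03-fold below the knockout (-2.33 ± 0.21, adjusted p = 2.5e-08). The call in the knockout ended without Control replicate 1 (0.64, adjusted p = 0.0997), without Control replicate 2 (0.57, adjusted p = 0.149), without MLL2 KO replicate 1 (0.40, adjusted p = 0.329) and by DESeq2 (0.62, adjusted p = 0.0536). The call in the knockdown held in all 14 alternatives, with log2 fold changes of -1.83 to -1.63.

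IFIT3, a partner that stabilises IFIT1 in a complex, was higher than Control in both depletions, at a low level. Its counts were 38 and 28 in MLL2 KO, 32 and 36 in PRMT1 KD, and 10 and 2 in Control, so every depleted library exceeded both Control libraries, which both comparisons share. The fold was 5.17 in either depletion (2.37 ± 0.70, adjusted p = 0.0175 in MLL2 KO, and 2.37 ± 0.70, adjusted p = 0.00781 in PRMT1 KD). Its size rested on the Control libraries, which differed between themselves. Without Control replicate 2 the log2 fold change was 1.64 (adjusted p = 0.163) in the knockout and 1.63 (adjusted p = 0.087) in the knockdown, and without Control replicate 1 it was 3.92 (adjusted p = 0.0104) and 3.91 (adjusted p = 0.00305). Without MLL2 KO replicate 1 the call in the knockout also ended (2.18, adjusted p = 0.0823). IFIT2, which forms complexes with both, had 1.29 and 0.491 CPM in MLL2 KO, 1.26 and 0.351 CPM in PRMT1 KD, and 0.449 and 0.492 CPM in Control. The replicates of each depletion spread across the Control values, and neither comparison with Control was called.

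IFIT5, a relative that binds uncapped RNA, was the most abundant IFIT gene per kilobase of exon. It had 16.2 and 14.8 CPM in PRMT1 KD against 42.6 and 37.9 CPM in Control, 2.60-fold lower (-1.38 ± 0.12, adjusted p = 1.7e-08). MLL2 KO, at 35.0 and 34.3 CPM, lay just below both Control libraries and was not called (-0.22 ± 0.12, adjusted p = 0.208), though offsets for exon length and GC content brought it under the threshold (-0.30, adjusted p = 0.0449). The 4 IFIT genes lie in 1 cluster on chromosome 10 (hg38, 89283694 to 89420997) in the order IFIT2, IFIT3, IFIT1 and IFIT5. In PRMT1 KD the neighbours IFIT3 and IFIT1 therefore moved in opposite directions. Of 4 other genes tested within 250 kb, none was called in MLL2 KO and 3 were lower in PRMT1 KD, among them LIPA, a lysosomal lipase gene on the opposite strand (-0.77, adjusted p = 6.04e-07), and PANK1, a pantothenate kinase gene (-0.69, adjusted p = 0.000162). Over all genes tested, 22.4% were called in MLL2 KO and 25.3% were lower in PRMT1 KD. With 4 neighbours no change of the region is read from these counts.

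**Figure D3:**
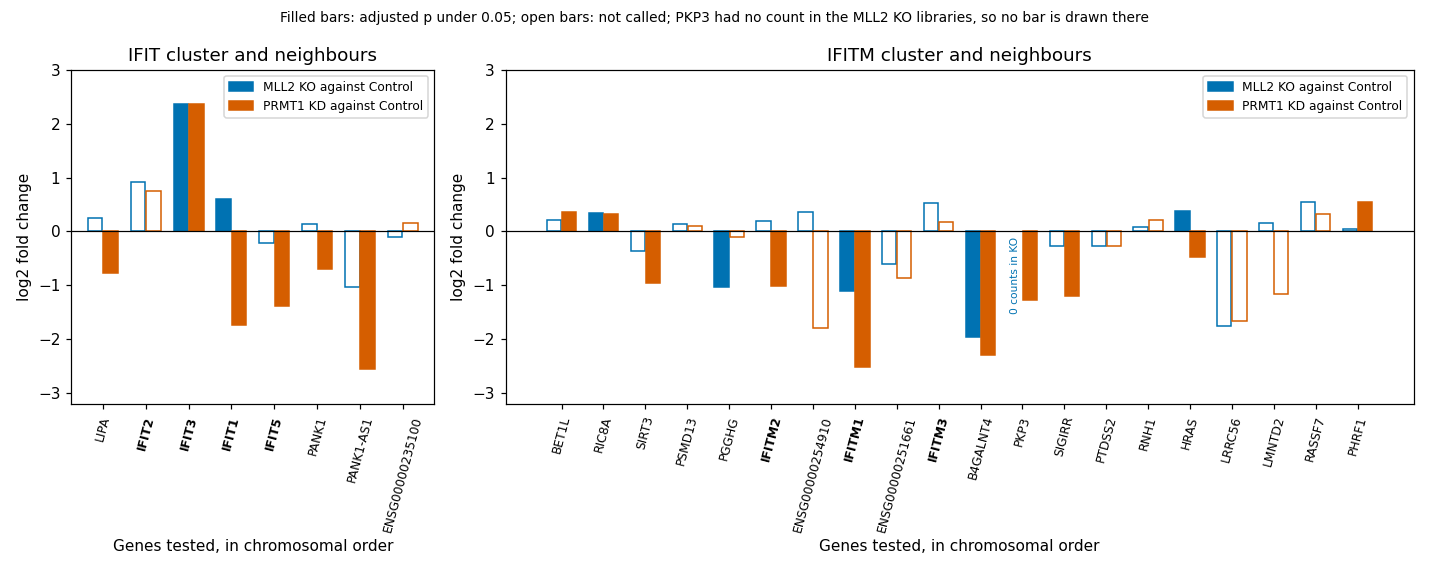
The log2 fold change of each gene tested within 250 kb of the IFIT cluster on chromosome 10 and the IFITM cluster on chromosome 11, in chromosomal order, with cluster members in bold, filled bars for an adjusted p under 0.05 and open bars otherwise. IFIT1 has a filled bar above 0 for MLL2 KO and below 0 for PRMT1 KD, and IFITM1 has filled bars below 0 for both. PKP3 has no bar for MLL2 KO, where it had no count.

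Among the genes named for interferon induction, IFI6, a membrane protein of the endoplasmic reticulum that restricts flaviviruses, was lower in the knockdown. It had 3.63 and 2.24 CPM in PRMT1 KD against 6.89 and 8.07 CPM in Control, 2.56-fold lower (-1.36 ± 0.27, adjusted p = 0.00025). MLL2 KO had 7.95 and 8.59 CPM and overlapped Control. IFI35, which with NMI takes part in innate immune signalling, had 3.82 and 5.31 CPM in PRMT1 KD, 1.48 and 2.11 CPM in MLL2 KO, and 1.45 and 3.44 CPM in Control. It was higher in the knockdown than in the knockout (1.35 ± 0.40, adjusted p = 0.0106), a call that ended without MLL2 KO replicate 1 (1.11, adjusted p = 0.0661) or PRMT1 KD replicate 2 (1.09, adjusted p = 0.0597). Against Control its value in the knockdown was 0.90 ± 0.39 (adjusted p = 0.0661). That value passed the threshold in 8 of 14 alternatives, among them offsets for exon length and GC content (1.30, adjusted p = 0.00774). IFI27 and IFI44L stayed at or below 2.21 CPM in every library, and neither was called in any comparison, except that IFI44L was higher in MLL2 KO without Control replicate 1 (3.23, adjusted p = 0.0292, beside 1.43 ± 0.70, adjusted p = 0.151, with all libraries). IFI44 had 4 and 6 counts in MLL2 KO, 0 and 4 in PRMT1 KD, and none in Control.

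**Figure D4:**
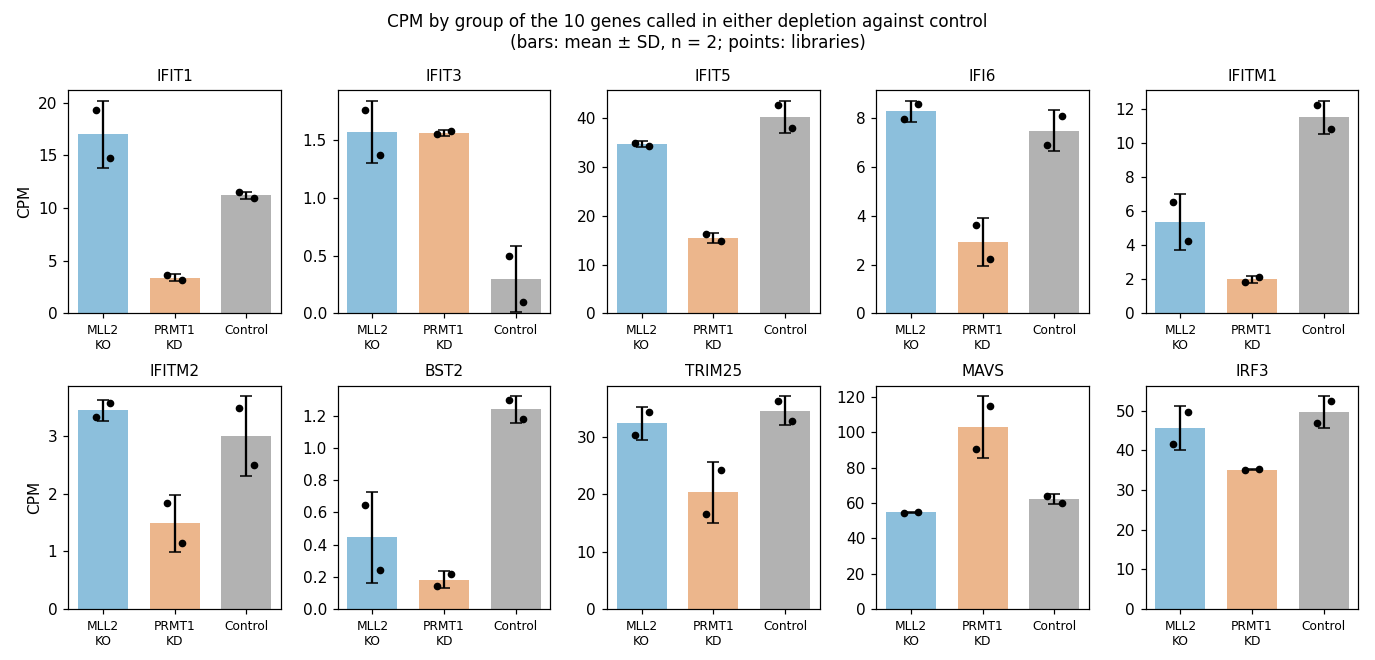
CPM of the 10 genes called in either depletion against Control, with bars for the group mean, error bars for the SD of the 2 libraries and 1 point per library. PRMT1 KD has the lowest bar for IFIT1, IFIT5, IFI6, IFITM1, IFITM2, BST2, TRIM25 and IRF3 and the highest for MAVS, and Control has the lowest for IFIT3.

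The membrane proteins that hinder viral entry and release included the most negative log2 fold changes of the 28 genes in the knockdown, those of BST2 and IFITM1. IFITM1, which blocks fusion of viruses at the cell membrane, had 6.52 and 4.22 CPM in MLL2 KO, 1.84 and 2.15 CPM in PRMT1 KD, and 12.2 and 10.8 CPM in Control. The 3 groups were separate, with Control highest. IFITM1 was 2.14-fold lower in MLL2 KO (-1.10 ± 0.25, adjusted p = 0.00291) and 5.76-fold lower in PRMT1 KD (-2.52 ± 0.27, adjusted p = 1.9e-07), and the knockdown lay below the knockout as well (-1.43 ± 0.28, adjusted p = 0.00032). Without MLL2 KO replicate 2 the call in the knockout ended (-0.81, adjusted p = 0.0609). IFITM2, which acts at endosomes, had 3.33 and 3.58 CPM in MLL2 KO, 1.84 and 1.14 CPM in PRMT1 KD, and 3.49 and 2.51 CPM in Control. It was 2.02-fold lower in the knockdown than in Control (-1.01 ± 0.39, adjusted p = 0.0388), but not with offsets for exon length and GC content (-0.65, adjusted p = 0.175), in a fit of these 2 groups alone (-0.98, adjusted p = 0.0743), by DESeq2 (-0.98, adjusted p = 0.111), without Control replicate 1 (-0.76, adjusted p = 0.226) or without PRMT1 KD replicate 2 (-0.71, adjusted p = 0.213). IFITM2 was also lower in the knockdown than in the knockout (-1.22 ± 0.39, adjusted p = 0.0161), which did not hold with the offsets (-0.88, adjusted p = 0.0694), without MLL2 KO replicate 2 (-1.17, adjusted p = 0.0596) or without PRMT1 KD replicate 2 (-0.91, adjusted p = 0.109). IFITM3 was at 0.499 to 0.786 CPM in the 6 libraries and was not called.

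The IFITM genes are close copies, and the annotation gives IFITM1 and IFITM2 351 shared exon bases, 37.5% of IFITM1 and 22.7% of IFITM2. Reads on these bases could be missing from both counts or split between them, which was not tested. TREX1, with 100% of its exon bases shared with ATRIP, had 0 counts in every library. Levels per kilobase use the full exon length, so those of IFITM1 and IFITM2 could be too low. Of 17 other genes tested within 250 kb on chromosome 11, 2 were higher and 3 lower in MLL2 KO. In PRMT1 KD 3 were higher and 5 lower. Over all genes tested the shares higher and lower were 10.3% and 12.1% in MLL2 KO and 22.2% and 25.3% in PRMT1 KD. B4GALNT4 was lower in both (-1.96, adjusted p = 2.02e-07, and -2.29, adjusted p = 3.5e-09), as was PKP3 (-9.43, adjusted p = 1.94e-06, and -1.27, adjusted p = 0.0252). RIC8A was higher in both (0.35, adjusted p = 0.00663, and 0.32, adjusted p = 0.00448).

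BST2, or tetherin, which holds budding virus at the cell surface, had 14 and 5 counts in MLL2 KO, 3 and 5 in PRMT1 KD, and 26 and 24 in Control. Every depleted library lay below both Control libraries. The change was called in PRMT1 KD (-2.72 ± 0.86, adjusted p = 0.0119) and not in MLL2 KO (-1.45 ± 0.78, adjusted p = 0.192), and the difference between the depletions was not called (-1.26 ± 0.92, adjusted p = 0.281). The call in the knockdown rested on few counts and ended without Control replicate 1 (-2.66, adjusted p = 0.0865), Control replicate 2 (-2.79, adjusted p = 0.0663) or PRMT1 KD replicate 1 (-2.47, adjusted p = 0.0854). MX1, a GTPase that traps viral nucleocapsids, had at most 4 counts in any library.

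The oligoadenylate synthetases, which activate RNase L on sensing double-stranded RNA, were barely read. OAS3 had 1.34 and 1.37 CPM in MLL2 KO, 0.145 and 0.702 CPM in PRMT1 KD, and 1.10 and 0.148 CPM in Control, and was not called in any comparison, except that PRMT1 KD lay below MLL2 KO without PRMT1 KD replicate 2 (-3.18, adjusted p = 0.0294). OAS2 had 6 counts, all in Control replicate 2.

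ISG15, a ubiquitin-like protein joined to other proteins during infection, had 7.03 and 7.26 CPM in MLL2 KO, 4.26 and 4.04 CPM in PRMT1 KD, and 5.19 and 5.81 CPM in Control. The groups did not overlap, with the knockout above and the knockdown below Control, although neither differed from Control in the test (0.38 ± 0.24, adjusted p = 0.288, in MLL2 KO and -0.41 ± 0.25, adjusted p = 0.185, in PRMT1 KD). With offsets for exon length and GC content the value of PRMT1 KD against Control turned to 0.08 (adjusted p = 0.806). The knockdown lay below the knockout (-0.78 ± 0.24, adjusted p = 0.0137), but not with the same offsets (-0.41, adjusted p = 0.173) or without MLL2 KO replicate 2 (-0.77, adjusted p = 0.0594).

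USP18, which removes ISG15 and dampens receptor signalling, had 20.8 and 24.1 CPM in MLL2 KO, 29.3 and 24.7 CPM in PRMT1 KD, and 22.7 and 27.0 CPM in Control. It was not called, but with the length and GC offsets PRMT1 KD was higher than Control (0.42, adjusted p = 0.00863) and than MLL2 KO (0.57, adjusted p = 0.000912), and without PRMT1 KD replicate 2 it was higher than MLL2 KO (0.38, adjusted p = 0.0429). PARP9, a macrodomain protein that acts with the ubiquitin ligase DTX3L, had 2.66 and 3.12 CPM in PRMT1 KD, 4.35 and 6.48 CPM in MLL2 KO, and 4.39 and 4.82 CPM in Control. It was lower in the knockdown than in the knockout (-0.90 ± 0.30, adjusted p = 0.0186), a call lost without MLL2 KO replicate 2 (-0.59, adjusted p = 0.237), without PRMT1 KD replicate 1 (-0.80, adjusted p = 0.0609) and by DESeq2 (-0.89, adjusted p = 0.0596). Against Control it was called with the offsets (-0.76, adjusted p = 0.0369) but not without them (-0.67 ± 0.30, adjusted p = 0.0704). DTX3L itself lay between 5.69 and 8.32 CPM in the 6 libraries and was not called.

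ISG20, an exonuclease that degrades viral RNA, had 0.967 and 1.19 CPM in PRMT1 KD, 1.39 and 1.18 CPM in MLL2 KO, and 1.15 and 3.84 CPM in Control. Control replicate 2 lay above the other 5 libraries, and no comparison was called, but without Control replicate 1 the knockdown lay below the lone remaining Control library (-1.83, adjusted p = 0.00894, with that library assumed to vary like the other groups).

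Of the RNA sensors, DDX58 (RIG-I) had 6.43 and 6.08 CPM in MLL2 KO, 6.29 and 7.94 CPM in PRMT1 KD, and 7.39 and 6.54 CPM in Control. Neither depletion was called (-0.15 ± 0.23, adjusted p = 0.682, and 0.03 ± 0.23, adjusted p = 0.919). IFIH1 stayed below 0.9 CPM in every library. CGAS, the cytosolic DNA sensor, had at most 8 counts in a library.

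Downstream of the sensors, MAVS and TRIM25 moved in opposite directions in the knockdown. MAVS had 90.5 and 115 CPM in PRMT1 KD, 54.6 and 55 CPM in MLL2 KO, and 64.2 and 60.1 CPM in Control. It was 1.66-fold higher in the knockdown than in Control (0.73 ± 0.11, adjusted p = 8.5e-06) and 1.88-fold higher than in the knockout (0.91 ± 0.11, adjusted p = 8e-07). TRIM25, a ubiquitin ligase that activates RIG-I and also acts in ISG15 conjugation, had 16.5 and 24.1 CPM in PRMT1 KD, 30.3 and 34.3 CPM in MLL2 KO, and 36.2 and 32.7 CPM in Control. It was 1.70-fold lower in the knockdown than in Control (-0.76 ± 0.15, adjusted p = 0.00026). In MLL2 KO neither gene was called (-0.18 ± 0.11, adjusted p = 0.248, for MAVS and -0.09 ± 0.15, adjusted p = 0.703, for TRIM25).

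IRF3, the factor activated by these sensors, was slightly lower in the knockdown. It had 35.1 and 35.2 CPM in PRMT1 KD, 41.7 and 49.6 CPM in MLL2 KO, and 46.8 and 52.5 CPM in Control, and PRMT1 KD was 1.41-fold lower than Control (-0.50 ± 0.11, adjusted p = 0.00107). The knockdown was also lower than the knockout (-0.38 ± 0.11, adjusted p = 0.0109), but not with the length and GC offsets (-0.24, adjusted p = 0.0542) or without MLL2 KO replicate 2 (-0.25, adjusted p = 0.207). IRF7, the other factor that drives interferon genes, was at or below 0.725 CPM in every library.

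STAT2, part of the complex that binds ISREs, had 47.0 and 49.7 CPM in MLL2 KO, 44.0 and 45.9 CPM in PRMT1 KD, and 43.7 and 44.3 CPM in Control. It was not called in either depletion (0.14 ± 0.10, adjusted p = 0.381, in MLL2 KO and 0.03 ± 0.10, adjusted p = 0.832, in PRMT1 KD). IRF9, which gives that complex its DNA contact, stayed at or below 2.06 CPM and was not called, and 42.2% of its exon bases overlap another gene on the same strand. IRF1 (7.55 to 11.9 CPM over the 6 libraries), an activator, and IRF2 (3.30 to 5 CPM), its antagonist, were not called in any comparison.

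In PRMT1 KD against Control, 1 of 14 tested members with the core was higher and 5 lower, and of 8 without it 1 was higher (MAVS) and 1 lower (TRIM25), against 22.2% and 25.3% of all genes. In MLL2 KO against Control 3 of the 14 with the core and none of the 8 without it were called, against 22.4% of all genes, and with so few genes no difference by motif is read from these counts.

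The change in the knockdown varied with exon length across all genes. Among genes with a mean log2 CPM above 2, the median log2 fold change of PRMT1 KD against Control was -0.45 for 222 genes with under 1000 nt of exon and 0.16 for 2852 genes over 8000 nt. In MLL2 KO these medians were -0.05 and 0.03. The PRMT1 KD replicates differed along the same axis (replicate 2 minus replicate 1, -0.22 and 0.09). Several genes lower in the knockdown are short, such as IFI6 (842 nt), IFITM1 (936 nt) and BST2 (1101 nt), while MAVS (11771 nt) and TRIM25 (9501 nt) are long. With per-library offsets for exon length and GC content the values in the knockdown were -1.72 for IFIT1, -1.35 for IFIT5, -0.95 for IFI6, -2.15 for IFITM1, -0.79 for TRIM25, -0.25 for IRF3 and 0.66 for MAVS, and all of these 7 stayed called. IRF3 moved from -0.50 and stayed near the threshold (adjusted p = 0.0433). Of the other called members, BST2 (-2.29, adjusted p = 0.0306) and IFIT3 (2.55, adjusted p = 0.004) stayed called, and IFITM2 did not (-0.65, adjusted p = 0.175).

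**Figure D5:**
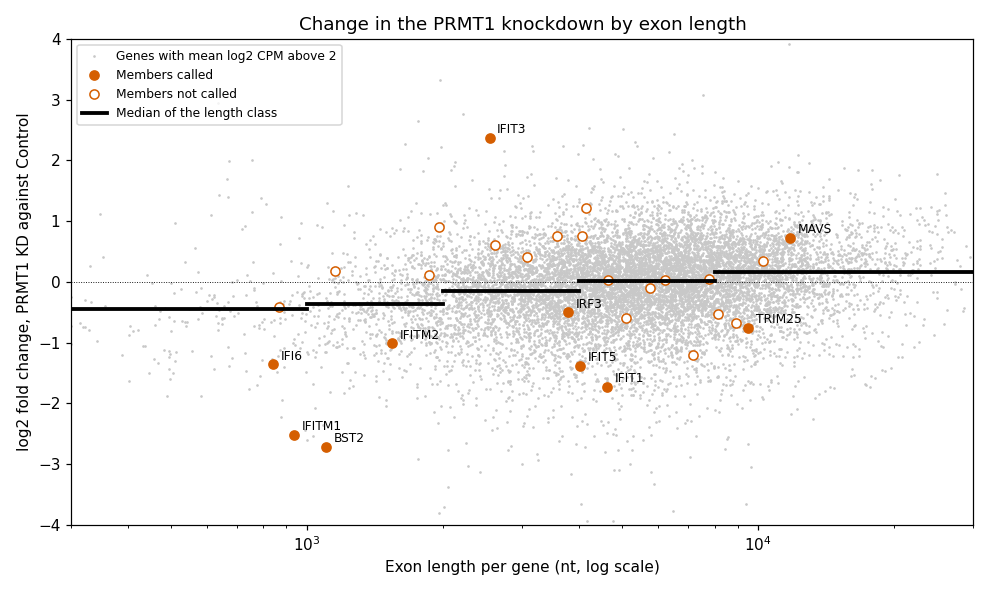
The log2 fold change of PRMT1 KD against Control by exon length (log scale), with gray points for genes of mean log2 CPM above 2, orange points for the 28 genes tested (filled where the adjusted p is under 0.05) and black lines for the median of each length class. The medians run from -0.45 in the shortest class to 0.16 in the longest, and IFI6, IFITM1 and BST2 lie at the short end below their class medians.

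Around these genes, 131 other genes of the interferon pathway were listed by role, of which 84 were tested. In MLL2 KO 7 were higher and 8 lower than Control (median -0.04), and in PRMT1 KD 15 were higher and 27 lower (median -0.21). That is 17.9% and 50% called, against 22.4% and 47.4% of all genes.

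No interferon gene was read at a testable level. Of 21 ligand genes none passed the filter, and the only counts were 3 of IFNA2 in MLL2 KO replicate 2 and 0 to 3 per library of IFNE.

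Of 16 receptor and signalling genes tested, 1 was higher and 1 lower in MLL2 KO, a smaller share than the 22.4% called of all genes. In PRMT1 KD 4 were higher and 2 lower, or 37.5% called against 47.4% of all genes (22.2% higher and 25.3% lower). IFNAR1, a chain of the receptor for type I interferon, had 60.0 and 66.8 CPM in PRMT1 KD, 31.7 and 34.6 CPM in MLL2 KO, and 25.5 and 27.9 CPM in Control. It was 2.38-fold higher in the knockdown than in Control (1.25 ± 0.11, adjusted p = 1.6e-08), and the knockout was not called (0.31 ± 0.11, adjusted p = 0.0541). Also higher in the knockdown were PIAS1, a SUMO ligase that restrains interferon signalling (0.58 ± 0.11, adjusted p = 2e-04), KPNA1, an importin that carries proteins into the nucleus (0.50 ± 0.11, adjusted p = 0.00051), and IFNGR1, a receptor chain for interferon gamma (0.46 ± 0.10, adjusted p = 0.00067). In MLL2 KO IRF8, a factor of myeloid and lymphoid cells, was lower (-1.15 ± 0.26, adjusted p = 0.00253), but not without Control replicate 2 (-0.78, adjusted p = 0.103). KPNA1 was also higher in MLL2 KO (0.31 ± 0.11, adjusted p = 0.0398), a call that ended without either Control library or either MLL2 KO library (0.29 to 0.33, adjusted p = 0.14 to 0.209).

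Of 23 further sensing genes and adaptors tested, 3 were higher and 3 lower in MLL2 KO, or 26.1% called against 22.4% of all genes. In PRMT1 KD 4 were higher and 10 lower, or 60.9% against 47.4%. ADAR, which edits double-stranded RNA and keeps it from the sensors, had 248 and 247 CPM in PRMT1 KD, 362 and 369 CPM in MLL2 KO, and 348 and 344 CPM in Control. The knockdown was 1.40-fold lower than Control (-0.48 ± 0.08, adjusted p = 2.9e-05). Also lower in the knockdown were RNF135, or RIPLET, a ubiquitin ligase for RIG-I (-1.01 ± 0.15, adjusted p = 1.4e-05), and NLRX1, a mitochondrial protein reported to restrain MAVS (-0.80 ± 0.12, adjusted p = 1.1e-05). TBK1, the kinase that phosphorylates IRF3, was higher, at 106 and 87.0 CPM in PRMT1 KD against 60.9 and 64.3 CPM in Control (0.62 ± 0.10, adjusted p = 4.1e-05). STING1, the adaptor that cGAS signals through, was chosen for mention after its values were seen, at 1.74 and 1.14 CPM in PRMT1 KD against 4.14 and 4.13 CPM in Control (-1.52 ± 0.37, adjusted p = 0.00188). Its counts in PRMT1 KD were 36 and 26, and its own call was not followed through the alternatives.

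In MLL2 KO SAMHD1, which depletes the nucleotide pool that viruses copy from, was higher, at 89.8 and 87.5 CPM against 63.9 and 56.0 CPM in Control (0.56 ± 0.09, adjusted p = 2e-04). TICAM1, the adaptor of TLR3, had no count in MLL2 KO against 17 and 4 counts in Control (adjusted p = 0.0115). That call ended without Control replicate 1 (adjusted p = 0.168), MLL2 KO replicate 1 (adjusted p = 0.0744) or MLL2 KO replicate 2 (adjusted p = 0.0709). IKBKE, a kinase related to TBK1, was lower in MLL2 KO (-1.36 ± 0.38, adjusted p = 0.0125), but not without Control replicate 1 (-1.26, adjusted p = 0.0776) or MLL2 KO replicate 2 (-0.82, adjusted p = 0.169).

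Of 29 other interferon-stimulated genes tested, 2 were higher and 4 lower in MLL2 KO, or 20.7% called against 22.4% of all genes. In PRMT1 KD 7 were higher and 9 lower, or 55.2% against 47.4%. UBE2L6, the conjugating enzyme for ISG15, had 1.16 and 0.785 CPM in MLL2 KO, 1.26 and 0.966 CPM in PRMT1 KD, and 4.19 and 4.38 CPM in Control. It was lower in both depletions (-2.13 ± 0.43, adjusted p = 0.00119, in MLL2 KO and -1.94 ± 0.43, adjusted p = 0.00072, in PRMT1 KD). LGALS3BP, a secreted glycoprotein, had 21.4 and 19.1 CPM in MLL2 KO, 17.6 and 15.0 CPM in PRMT1 KD, and 45.1 and 52.5 CPM in Control, and was likewise lower in both (-1.27 ± 0.13, adjusted p = 8.9e-07, and -1.58 ± 0.13, adjusted p = 6.2e-09). SAMD9, which restricts poxviruses, had 9.38 and 9.57 CPM in MLL2 KO, 7.74 and 8.38 CPM in PRMT1 KD, and 2.99 and 4.28 CPM in Control, and was higher in both (1.38 ± 0.24, adjusted p = 0.00028, and 1.15 ± 0.24, adjusted p = 0.00046). In the knockdown ZC3HAV1, a zinc finger protein that binds viral RNA, was higher (0.65 ± 0.10, adjusted p = 2.1e-05), as was HELZ2, a helicase (0.93 ± 0.15, adjusted p = 3.9e-05).

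Of 16 antigen presentation genes tested, none was higher and 6 were lower in PRMT1 KD (median -0.58), which is 37.5% called, against 47.4% of all genes (25.3% lower). PSME2, a proteasome activator subunit, was one of the 6 (-0.34, adjusted p = 0.0112) and was not called with the length and GC offsets (-0.18, adjusted p = 0.119). In MLL2 KO 1 of the 16 was higher and none lower (median -0.11), or 6.25% called against 22.4% of all genes. HLA-B, a class I heavy chain, had 48.2 and 41.9 CPM in PRMT1 KD, 103 and 100 CPM in MLL2 KO, and 110 and 114 CPM in Control, 2.49-fold lower in the knockdown (-1.32 ± 0.09, adjusted p = 5.8e-10). TAP1, a chain of the peptide transporter, had 10.2 and 8.91 CPM in PRMT1 KD, 20.4 and 22.8 CPM in MLL2 KO, and 23.5 and 22.6 CPM in Control, 2.42-fold lower in the knockdown (-1.27 ± 0.15, adjusted p = 7.5e-07). HLA-C was lower in the knockdown (-0.29 ± 0.08, adjusted p = 0.00679) except without Control replicate 2 (-0.24, adjusted p = 0.114) and with the length and GC offsets, which turned it to 0.09 (adjusted p = 0.287). Class I heavy chain genes are close copies, so their reads may be split. B2M, the light chain, was higher in MLL2 KO (0.38 ± 0.10, adjusted p = 0.00799), but not without Control replicate 2 (0.29, adjusted p = 0.162) or MLL2 KO replicate 1 (0.37, adjusted p = 0.0634).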

How the data were processed

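Total RNA libraries of 293T cells were analysed, 2 per group. The deposited files hold raw read counts per gene, 1 file per library. The submitters' processing notes list the build hg38 and the tools featureCounts 1.5.0-p1, STAR 2.7.5a, FastQC 0.11.4, Trim Galore 0.6.10 and DESeq2 1.36.0. Per the file headers the counter was featureCounts 2.0.1 with GENCODE 34, a minimum mapping quality of 10 and strand setting 2, so which version applies is not known. Reads shared by near-identical copies (IFITM, USP18, HLA class I) score low in mapping quality and may be missing. The files' headers name the alignments WTshNT (Control), MKshNT (MLL2 KO) and WTshPR (PRMT1 KD), which the labels do not explain.

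Genes were kept by filterByExpr, scaled by TMM and tested with edgeR 4.0.16 (quasi-likelihood F test, R 4.3.3), with all 6 libraries and 1 term per group, 3 residual degrees of freedom and Benjamini-Hochberg adjustment over all 17575 genes. A gene was called at an adjusted p under 0.05. Values after ± beside a log2 fold change are SE, taken as the size of the log2 fold change divided by the square root of F. All genes of the list were named, and of each pathway list up to 4 called genes per comparison with the smallest adjusted p, of which the text prints part. The members and lists were chosen with earlier results of these data known. The 250 kb window around the clusters was chosen after the files were seen. Promoter windows came from RefSeq, and GC content from GENCODE 29 for 58482 genes. Alternatives were RLE scaling, other count filters, the compared groups alone, DESeq2 1.42.0, the replicate number as a block, spline offsets for exon length and GC content, and leaving out each library.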

Additional observations from a re-analysis of the deposited data

How the results depend on the processing

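Scaling, count filters, the choice of groups in the fit, DESeq2, the length and GC offsets and the replicate block left the total number of calls of each comparison within 1.5 times its value, though not each direction's share, and leaving out a library did not always. Without each library in turn the members called numbered 1 to 3 in MLL2 KO against Control (1 without Control replicate 2 or MLL2 KO replicate 1), 9 to 11 in PRMT1 KD against Control and 7 to 11 in PRMT1 KD against MLL2 KO (7 without MLL2 KO replicate 2). In MLL2 KO against Control all genes called ranged from 1908 without Control replicate 2 to 5492 without PRMT1 KD replicate 2 (3941 with all libraries) and pathway genes called from 8 to 21 (15 with all libraries). With the offsets the members split into 2 higher and 2 lower in MLL2 KO, 4 and 8 in PRMT1 KD, and 3 and 6 in PRMT1 KD against MLL2 KO. The shares of all genes called with the offsets or by DESeq2 are not printed here, so such splits are not read as results about the members. DESeq2 gave 1 higher and 1 lower in MLL2 KO, and RLE scaling gave 11 higher and 8 lower pathway genes there, beside 7 and 8. For both PRMT1 KD comparisons the leave-out counts stand without the number of all genes called in the same fits. No change particular to the members is therefore read from them. No called value of a member changed sign. Of the pathway genes, HLA-C in PRMT1 KD against Control turned to 0.09 with the offsets (0.09 also with the block), and RNF213 in PRMT1 KD against MLL2 KO turned from 0.31 (adjusted p = 0.0385) to -0.04 (-0.04 also with the block). The cause was not tested.

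Whether the replicate numbers pair the libraries cannot be settled with 2 libraries per group. The correlation of deviations over 11509 genes was 0.063 for Control with MLL2 KO, 0.044 for Control with PRMT1 KD and 0.197 for MLL2 KO with PRMT1 KD. With the replicate block the members called were 3 in MLL2 KO, 11 in PRMT1 KD and 11 between them, the genes called 4512, 8710 and 7529 (3941, 8338 and 7154 without the block), and the pathway genes called 18, 43 and 40. With 2 libraries per group and few counts for genes such as IFIT3 and BST2, single libraries decide calls, and genes near 0 counts could not be tested.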
